A study of Nothobranchius furzeri with 10 samples.

Results

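A set of 104 killifish brain genes had higher values in every antagomiR-29a library than in any scrambled control library. They were chosen by that contrast itself, from 17893 genes with a mean CPM of at least 1 (CPM, a gene's counts scaled to a library total of 1000000) out of 26739 genes in the count table. A gene entered the set if its lowest CPM among the 5 antagomiR-29a libraries lay above its highest CPM among the 5 control libraries. The differences between the groups given here therefore describe how the genes were picked and test nothing. The set makes up 0.581% of the 17893 genes, and 109 genes, or 0.609%, met the mirror rule with all antagomiR-29a libraries lower.

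RNA was sequenced from the brains of male turquoise killifish, Nothobranchius furzeri, of the strain MZM-0410p at an age of 22 weeks. The tested fish received antagomiR-29a at 100 pmol (5 libraries), and the others received a scrambled control whose dose the labels do not give (5 libraries). The turquoise killifish is an annual fish with a very short life, kept as a model of vertebrate ageing. Strain, sex, age and tissue are shared by both groups. The labels state neither the route of delivery, nor the time before sampling, nor whether each library came from a separate fish, so the spread between libraries may be partly technical. Library totals ran from 18489730 to 24486735 counts.

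MicroRNAs are short RNAs that guide a silencing complex to partly complementary sites, mostly in the 3′ untranslated regions of messenger RNAs, and lower their stability or translation. An antagomir is a chemically modified oligonucleotide that pairs with one microRNA and blocks it, so that direct targets can become more abundant, together with transcripts further downstream. In mammals the targets of the miR-29 family include collagens and other matrix genes and enzymes of DNA methylation. The level of miR-29a in these brains was not analysed here, so its block was not checked. The files give each gene only an identifier, and 0 of these were found in a RefSeq gene table of 38438 killifish genes, so no function, known target or brain cell marker can be attached to any of them. The genes are therefore ordered below by the size and clarity of their difference.

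The differences were mostly small. The median ratio of mean CPM, antagomiR-29a over control, was 1.30, with quartiles of 1.17 and 1.59 and a range of 1.07 to 2.86. Among the 104 genes, 7 had a ratio of at least 2, 26 of 1.5 to 2, 36 of 1.2 to 1.5, and 35 of less than 1.2. The median fitted log2 fold change of the set was 0.38, where that of all 18976 genes tested was 0.003. In whole brain tissue, more RNA per cell and more cells of a type cannot be told apart. The 4 size classes differed in how much libraries of the same group varied. The median SD of log2 CPM within groups was 0.485 in the class of at least 2, 0.235 and 0.130 in the next classes, and 0.0787 in the class under 1.2. A gene with a small difference can pass the rule only if its libraries lie close together, so this order follows in part from the rule.

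**Figure D1:**
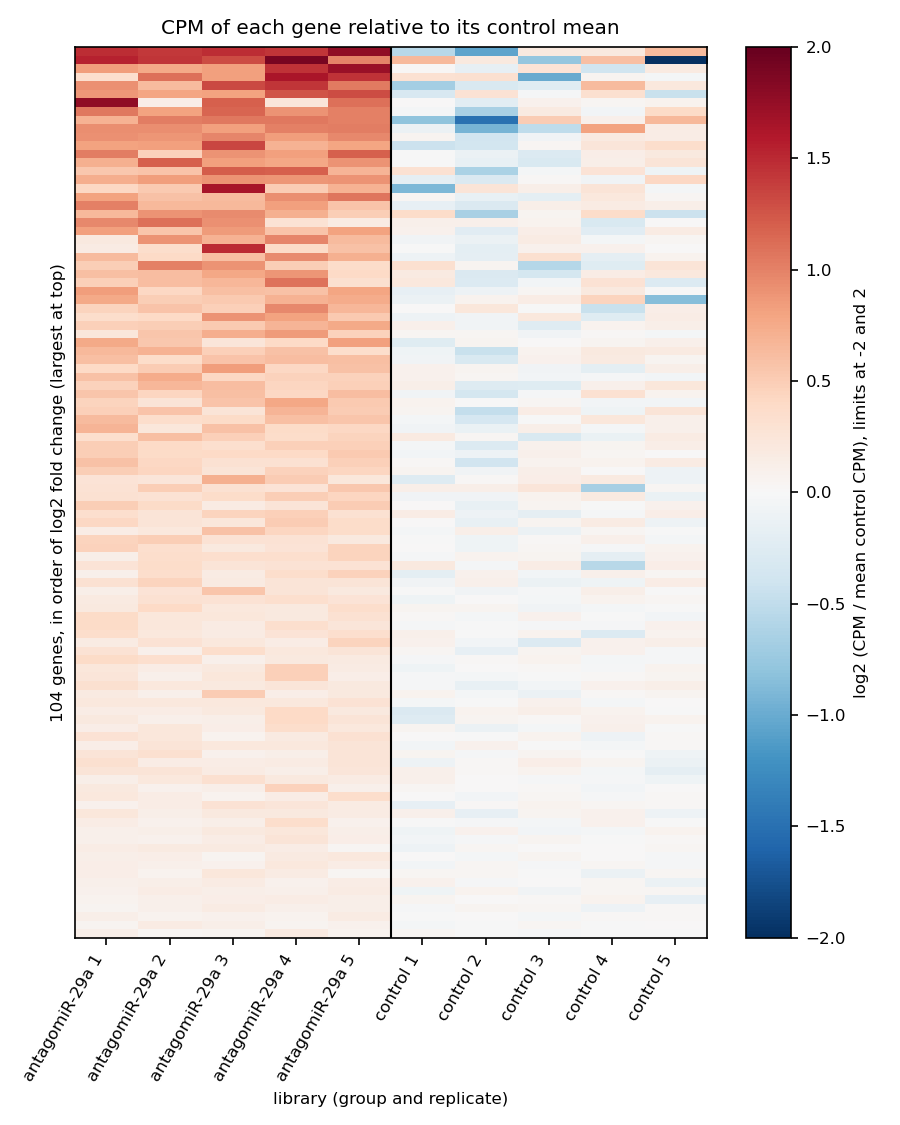
Colour gives log2 of CPM over the gene's mean control CPM, for the 104 genes (rows, largest log2 fold change at the top) in the 5 antagomiR-29a libraries (left) and the 5 control libraries (right). A few strong genes stand at the top, and the colour of the antagomiR-29a libraries is faint over the lower part, where 35 genes differ by less than 1.2-fold.

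All 104 genes passed the count filter of the edgeR test, which was fitted on the whole table, and 8 of them had a Benjamini-Hochberg adjusted p under 0.05. Over all 18976 tested genes 8 were called higher, or 0.0422%, so every gene called higher belongs to the set. With DESeq2, 48 of the 104 were called, of 57 genes called higher in all (0.297% of 19213). At an adjusted p limit of 0.1 edgeR called 16 of the set, against 16 genes called higher in the whole table (0.0843%). At an unadjusted edgeR p under 0.05 stood 99 of the set, against 630 genes of the whole table that were higher (3.32%). In either direction, 1122 genes of the whole table had such a p. Both tests use the contrast that chose the genes, so these shares show only where the rule and the tests overlap. The 8 edgeR calls were not stable when 1 library was left out. Such a fit also has fewer libraries, and how much of the loss comes from that was not tested. When antagomiR-29a replicate 1 or 5 or control replicate 1 or 3 was dropped, edgeR called 0 of the set and 0 in the whole table. In either direction, 1209, 933, 1058 and 1253 genes of the whole table then had an unadjusted p under 0.05. Without antagomiR-29a replicate 2 edgeR called 8 of the set, of which 6 were among the 8 original calls, and 8 in the whole table. It called 3 of the set without antagomiR-29a replicate 3 or 4, against 3 and 4 in the whole table in either direction. Without control replicates 2, 4 and 5 it called 1, 2 and 3 of the set, against 1, 3 and 3 in the whole table.

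The called gene with the widest separation, also among the 5 with the highest mean CPM, was Nfu_g_1_010009. It stood at 644, 630.3, 676, 609.8 and 666 CPM in antagomiR-29a replicates 1 to 5, against 354, 263, 327, 390.3 and 379 CPM in control replicates 1 to 5. The antagomiR-29a libraries lay close together and the control libraries were spread, with control replicate 2 lowest. Its mean was 645 ± 26.9 CPM in antagomiR-29a libraries and 343 ± 50.6 CPM in control libraries (SD, n = 5 each), with log2 fold change 0.91 and SE 0.09. The lowest antagomiR-29a value was 1.56 times the highest control value. Per kilobase of its implied length of 7595 bases these means are 85.0 and 45.1 RPKM (CPM divided by length in kilobases).

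The next largest fold change among the called genes was that of Nfu_g_1_005777, which measured 93.0, 131, 100.1, 97.4 and 107 CPM in antagomiR-29a replicates 1 to 5, against 56.8, 51.6, 46.3, 62.0 and 68.0 CPM in control replicates 1 to 5. Here antagomiR-29a replicate 2 was the highest library, and the remaining antagomiR-29a libraries lay within a narrow band above all controls. The fitted log2 fold change was 0.89 (SE 0.12.) For Nfu_g_1_018863 the values were 44.0, 47.6, 49.7, 49.3 and 49.4 CPM in antagomiR-29a replicates 1 to 5, and 23.5, 21.8, 27.0, 25.2 and 35.4 CPM in control replicates 1 to 5. The antagomiR-29a libraries were again the more even group, and control replicate 5 came nearest to them. It had a fitted log2 fold change of 0.85 (SE 0.11.)

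Nfu_g_1_012912 had the fewest reads of the called genes, 250 to 424 counts per antagomiR-29a library and 145 to 221 per control library. It stood at 15.3, 13.1, 13.5, 16.7 and 18.4 CPM in antagomiR-29a replicates 1 to 5, and at 9.02, 7.90, 7.63, 10.1 and 9.03 CPM in control replicates 1 to 5. With an implied length of only 300 bases it is the shortest of the 8, and per kilobase its means were 51.4 RPKM in antagomiR-29a libraries and 29.1 RPKM in control libraries. Its log2 fold change came to 0.82 (SE 0.12.) Nfu_g_1_020043 measured 247, 192, 193, 217 and 182 CPM in antagomiR-29a replicates 1 to 5, against 109.7, 101, 133, 137 and 133 CPM in control replicates 1 to 5. Both groups varied, and the groups were separated by the step between antagomiR-29a replicate 5 and control replicate 4. This gave a log2 fold change of 0.75 (SE 0.11.)

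Nfu_g_1_021586 had 48.6, 40.2, 49.6, 40.9 and 48.2 CPM in antagomiR-29a replicates 1 to 5, against 29.3, 23.7, 30.3, 23.5 and 30.9 CPM in control replicates 1 to 5. In each group 2 libraries lay below the other 3, antagomiR-29a replicates 2 and 4 and control replicates 2 and 4. The fitted log2 fold change was 0.73 (SE 0.10.) Nfu_g_1_020134 had 242, 270.0, 215, 223 and 222 CPM in antagomiR-29a replicates 1 to 5, against 172, 166, 155, 159.6 and 155 CPM in control replicates 1 to 5. Its control libraries spanned a narrow range and antagomiR-29a replicate 2 was the highest library. Its log2 fold change came to 0.54 (SE 0.07.)

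The smallest fold change among the called genes belonged to Nfu_g_1_008034, at 90.2, 83.2, 84.4, 84.5 and 91.9 CPM in antagomiR-29a replicates 1 to 5 and 61.5, 59.6, 68.3, 65.8 and 64.4 CPM in control replicates 1 to 5. Both groups were tight, which sets it apart from Nfu_g_1_010009, where the controls were spread. Its mean was 86.9 ± 3.92 CPM in antagomiR-29a libraries and 63.9 ± 3.47 CPM in control libraries (SD, n = 5 each), with a log2 fold change of 0.44 and an SE of 0.05.

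**Figure D2:**
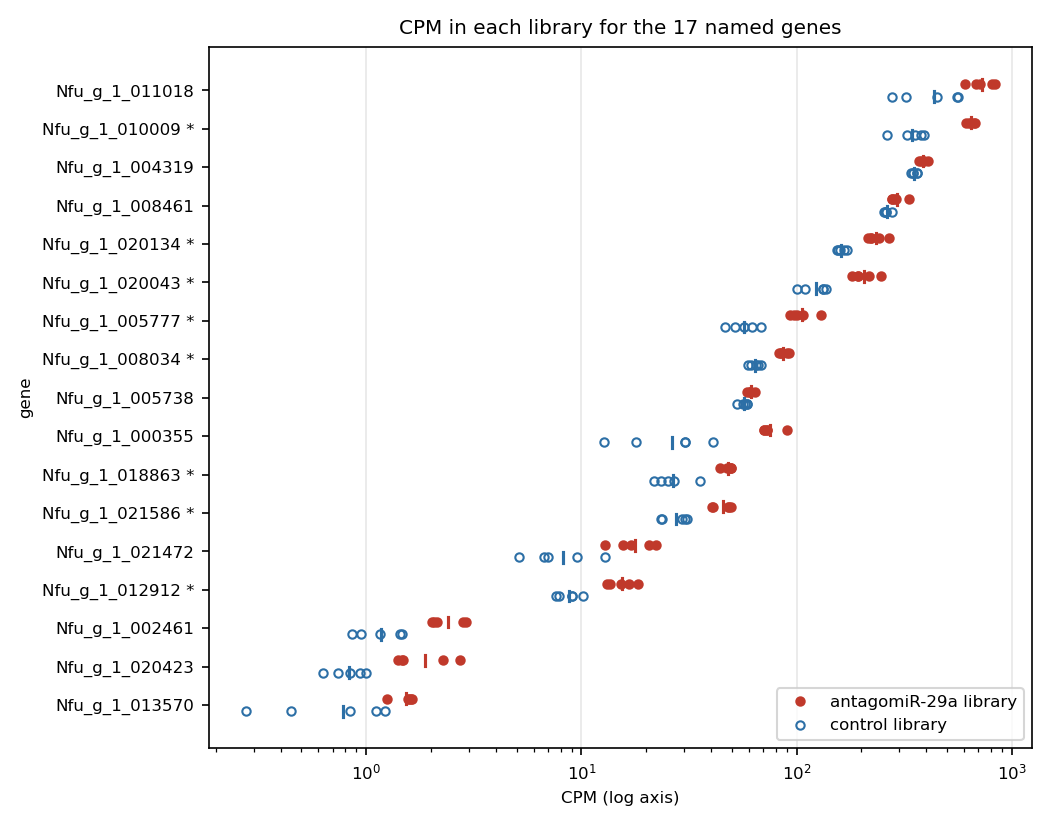
CPM (log axis) of the 17 genes named by the naming rule, with antagomiR-29a libraries as filled points above and control libraries as open circles below, a short bar at each group's mean, and an asterisk for the 8 genes called by edgeR. In each gene the filled points lie right of the open circles, by 1.73 times in Nfu_g_1_000355 and by hardly any distance in Nfu_g_1_021472 and Nfu_g_1_005738.

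The largest fold change of the set was not among the edgeR calls. Nfu_g_1_000355 stood at 73.2, 70.4, 73.1, 70.8 and 90.0 CPM in antagomiR-29a replicates 1 to 5, against 17.9, 12.8, 30.3, 30.2 and 40.7 CPM in control replicates 1 to 5. Its controls spread over more than their own mean of 26.4 ± 11.1 CPM (SD, n = 5), while the antagomiR-29a libraries averaged 75.5 ± 8.20 CPM (SD, n = 5). The fit gave a log2 fold change of 1.52 (SE 0.25), and its lowest antagomiR-29a value was 1.73 times its highest control value, the widest separation of the set. Of the 5 genes with the widest separation, the remaining 2 beside Nfu_g_1_000355, Nfu_g_1_010009 and Nfu_g_1_005777 had few reads. Nfu_g_1_020423 had 27 to 63 counts per antagomiR-29a library and 12 to 23 per control library, or 1.87 ± 0.600 and 0.830 ± 0.150 CPM (SD, n = 5 each). Nfu_g_1_002461 had 38 to 67 counts per antagomiR-29a library and 19 to 31 per control library, or 2.39 ± 0.432 and 1.17 ± 0.277 CPM (SD, n = 5 each). At these depths counting error adds to the spread, and its share was not computed.

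Of the 7 genes with a ratio of means of at least 2, the following 3 were picked for description after their values were seen. Nfu_g_1_001849 had 173, 55.0, 115, 59.2 and 108 CPM in antagomiR-29a replicates 1 to 5, against 50.3, 43.6, 53.4, 51.6 and 52.8 CPM in control replicates 1 to 5. Its antagomiR-29a replicates 2 and 4 lay just above the controls and the other 3 far above. Nfu_g_1_014201 had 13.7, 23.1, 19.04, 33.3 and 29.5 CPM in antagomiR-29a replicates 1 to 5, against 13.4, 13.5, 5.37, 11.2 and 10.5 CPM in control replicates 1 to 5, so that antagomiR-29a replicate 1 almost touched the controls. Nfu_g_1_018058 had 1.43 to 2.71 CPM in antagomiR-29a libraries and 0.123 to 1.14 CPM in control libraries, on as few as 3 counts in control replicate 5, the lowest count of any gene of the set. None of the 7 genes was called by edgeR at an adjusted p under 0.05, while DESeq2 called 6 of them. In the classes of 1.5 to 2, 1.2 to 1.5 and under 1.2, DESeq2 called 17 of 26, 24 of 36 and 1 of 35. In the whole table it called 57 of 19213 genes higher (0.297%).

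By share of reads the top of the set held Nfu_g_1_011018, Nfu_g_1_010009, Nfu_g_1_004319, Nfu_g_1_008461 and Nfu_g_1_020134. Nfu_g_1_011018 stood at 680.0, 811, 832, 710.0 and 609.6 CPM in antagomiR-29a replicates 1 to 5, against 560.5, 277, 449, 558 and 323 CPM in control replicates 1 to 5. Control replicates 2 and 5 were far below control replicates 1 and 4, and its log2 fold change of 0.75 had an SE of 0.19. Per kilobase of its implied length of 960 bases it averaged 759 RPKM in antagomiR-29a libraries and 452 RPKM in control libraries, above the 431.6 and 393 RPKM of Nfu_g_1_004319, whose implied length is 897 bases. In Nfu_g_1_004319 the groups averaged 387 ± 13.2 CPM in antagomiR-29a libraries and 352 ± 9.93 CPM in control libraries (SD, n = 5 each), with log2 fold change 0.14 and SE 0.04. In Nfu_g_1_008461 antagomiR-29a replicate 4 stood at 334 CPM and the other antagomiR-29a libraries between 278 and 290.3 CPM, against 255 to 277 CPM in control libraries. Nfu_g_1_004319 and Nfu_g_1_008461 thus differed by little. Nfu_g_1_004319 met the rule with close replicates. In Nfu_g_1_008461 the lowest antagomiR-29a value was only 1.002 times the highest control value. All 104 genes together took 0.662% to 0.677% of the counts in antagomiR-29a libraries and 0.437% to 0.520% in control libraries.

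**Figure D3:**
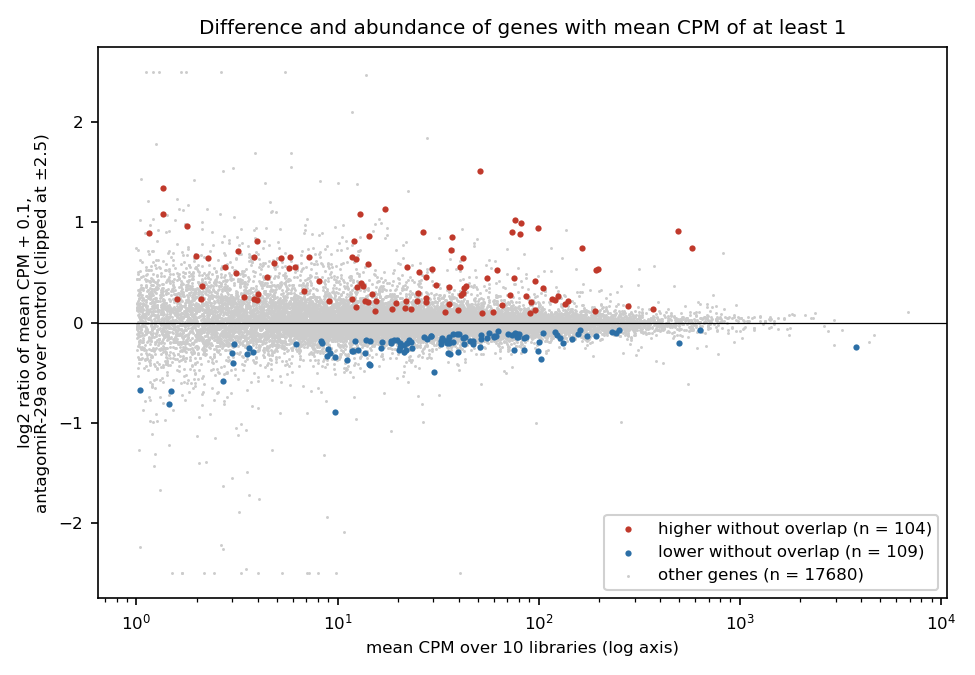
Each point is 1 of 17893 genes with mean CPM of at least 1, placed by mean CPM over 10 libraries (log axis) and by the log2 ratio of group means (antagomiR-29a over control, with 0.1 CPM added, clipped at 2.5 either way). The 104 genes higher without overlap extend further from 0 than the 109 genes lower without overlap, with median log2 fold changes of 0.38 and -0.19. The lower genes also varied less within groups, with a median SD of log2 CPM of 0.0773 against 0.135. The rule lets small differences pass only where libraries lie close together, and the cause of the asymmetry was not tested.

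The distance between the groups was narrow for most of the set. The lowest antagomiR-29a value exceeded the highest control value by a median factor of 1.05, with quartiles of 1.02 and 1.12, and by less than 1.1 in 72 genes. Counting error bears on this distance. In 19 of the 104 genes the exact 95% Poisson intervals of the counts in the 2 libraries facing each other, scaled to library totals, were separate, and in 85 they overlapped. All 8 genes called by edgeR were among the 19. Such intervals cover counting error only. They compare the extreme libraries that the rule itself compares. An overlap there does not show that the difference between whole groups lies within counting error.

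At the edge of the rule the members and the excluded genes were nearly alike. The narrowest separations were those of Nfu_g_1_021472, with 12.857 CPM in its lowest antagomiR-29a library and 12.855 CPM in its highest control library, and Nfu_g_1_005738, with 59.11 and 59.10 CPM. Just outside lay Nfu_g_1_014496, whose lowest antagomiR-29a library was 0.99999 times its highest control library, both at 88.65 CPM, and Nfu_g_1_005480, with 19.04 CPM in its lowest antagomiR-29a library and 19.05 CPM in its highest control library. Among the genes higher without overlap, the mean CPM nearest above the minimum of 1 was 1.154 in Nfu_g_1_013570, and the nearest below it 0.9295 in Nfu_g_1_013395. In all, 16 genes had no overlap but a mean below the minimum.

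Within each group the libraries did not share equally in setting the distance. The library facing the controls, the lowest of its group, was antagomiR-29a replicate 2 in 31 genes, replicate 1 in 28, replicate 3 in 23, replicate 5 in 12 and replicate 4 in 10. On the control side the highest library was control replicate 4 in 26 genes, replicate 5 in 26, replicate 3 in 21, replicate 1 in 19 and replicate 2 in 12. At the far ends, antagomiR-29a replicate 4 was highest in 29 genes and control replicate 2 lowest in 35. As the rule requires, all antagomiR-29a libraries were shifted, with a median log2 ratio to the control mean of 0.35, 0.35, 0.35, 0.40 and 0.41 in replicates 1 to 5, and of 0.00, -0.04, 0.03, 0.04 and 0.04 in control replicates 1 to 5.

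Applied to 9 libraries, the rule takes in all 104 genes and adds others. It held for 277 genes without antagomiR-29a replicate 1, 224 without antagomiR-29a replicate 2, 150 without antagomiR-29a replicate 3, 145 without antagomiR-29a replicate 4 and 138 without antagomiR-29a replicate 5. On the control side it held for 146, 148, 229, 211 and 166 genes without control replicates 1 to 5 in turn. The set is thus larger by more than 1.5 times when any of 5 libraries is dropped, antagomiR-29a replicates 1 and 2 and control replicates 3, 4 and 5. A rule on fewer libraries is easier to meet, and how much of the growth comes from that was not tested.

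**Figure D4:**
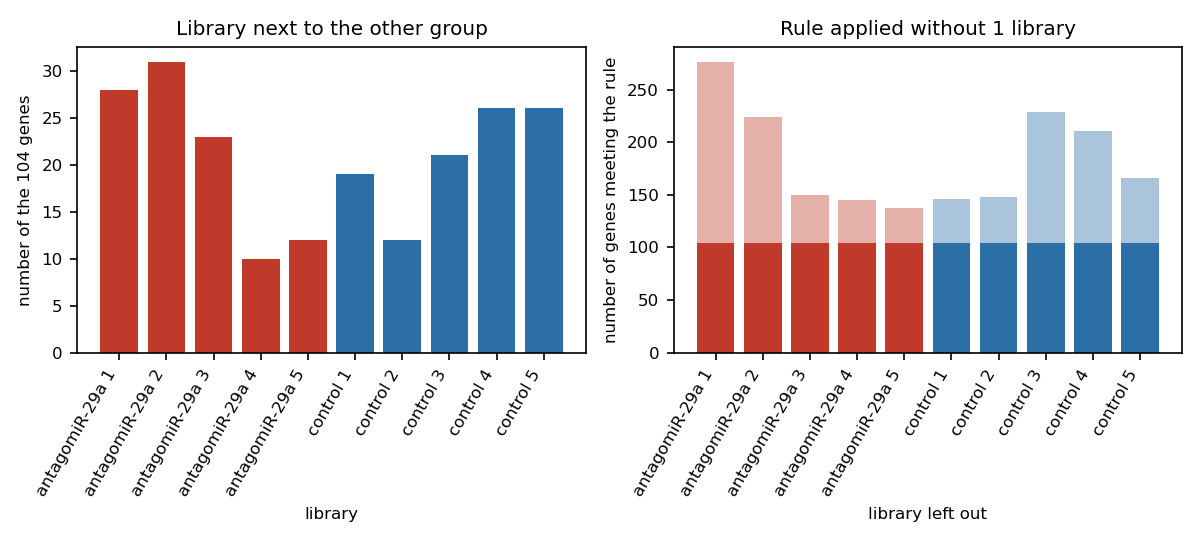
Left, the number of the 104 genes in which each library was the one of its group nearest to the other group (bars from 0). Right, the number of genes meeting the rule when that library is left out, with the 104 genes in full colour and added genes in pale colour, highest at 277 without antagomiR-29a replicate 1.

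The members did not vary as one block from library to library. Over the 5356 pairs of genes, the correlation of their deviations from the group means across the 10 libraries had a median of 0.03 and quartiles of -0.24 and 0.31. Pairs of other genes were not compared, so whether the set differs from them in this is not known. Average-linkage clustering of these correlations at a distance of 0.3 left 22 genes alone and gave 4 clusters of at least 5 genes, 22 genes in all. These clusters were formed on the values they describe and all libraries are shared between genes, so they are given without a test.

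The largest cluster held 7 genes that varied among controls and were nearly level in antagomiR-29a libraries. Its mean log2 deviation was -0.02, -0.03, -0.02, 0.01 and 0.07 in antagomiR-29a replicates 1 to 5, and -0.15, -0.56, 0.22, 0.08 and 0.42 in control replicates 1 to 5. Nfu_g_1_000355 and Nfu_g_1_018863 belong to it. A second cluster of 5 genes, with Nfu_g_1_010009, had the same low control replicate 2 but another high control. Its deviations lay between -0.09 and 0.06 in antagomiR-29a libraries and were -0.02, -0.42, -0.07, 0.37 and 0.14 in control replicates 1 to 5. In the other 2 clusters, of 5 genes each, the antagomiR-29a libraries varied more than the controls. One was high in antagomiR-29a replicate 4, at 0.20, and ranged from -0.09 to 0.00 over the rest of that group, with controls between -0.01 and 0.02. The other stood at 0.15 in antagomiR-29a replicate 5 and -0.18 in antagomiR-29a replicate 3, with controls between -0.05 and 0.06. Over the whole set, 55.8% of genes had the larger SD of log2 CPM in the control group, where 48.6% of the 17893 genes did.

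Gene length was not itself part of the rule, but the CPM that the rule compares carry each library's trend with length, given below. How far that trend shapes the lengths of the set was not tested. It was taken from the deposited counts and RPKM values, and was found for 103 of the 104 genes. The median length was 1924 bases in the set (quartiles 1128 and 3556), 2752 bases over 17723 genes with mean CPM of at least 1 (quartiles 1378 and 4763), and 3916 bases in the 109 genes of the mirror rule (quartiles 2345 and 5415). Shorter than 1000 bases were 20.4% of the set and 16.4% of all these genes. Mean levels per kilobase had a median of 12.1 RPKM in the set and 8.68 RPKM over all these genes, and mean CPM a median of 24.995 in the set and 21.1 over all.

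Libraries differed in how counts changed with gene length. The rank correlation between length and a gene's deviation from its mean log2 CPM, across 17723 genes that are not independent replicates, was -0.07, 0.11, -0.07, -0.15 and -0.05 in antagomiR-29a replicates 1 to 5, and 0.09, 0.07, -0.02, 0.03 and 0.02 in control replicates 1 to 5. The antagomiR-29a mean of -0.04 ± 0.10 and the control mean of 0.04 ± 0.04 (SD, n = 5 each) did not differ past the 0.05 limit (two-sided exact permutation test, p = 0.135, smallest possible p = 0.00794). With each library's smooth trend on length removed, an alternative chosen after seeing the data, 104 genes met the rule, of which 87 were in the set. The edgeR test then called 13 of the set, with all 8 of the original calls kept, against 14 genes of the whole table in either direction. The median log2 fold change of the set was 0.37. These values use the contrast that chose the genes, so they do not test the set.

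**Figure D5:**
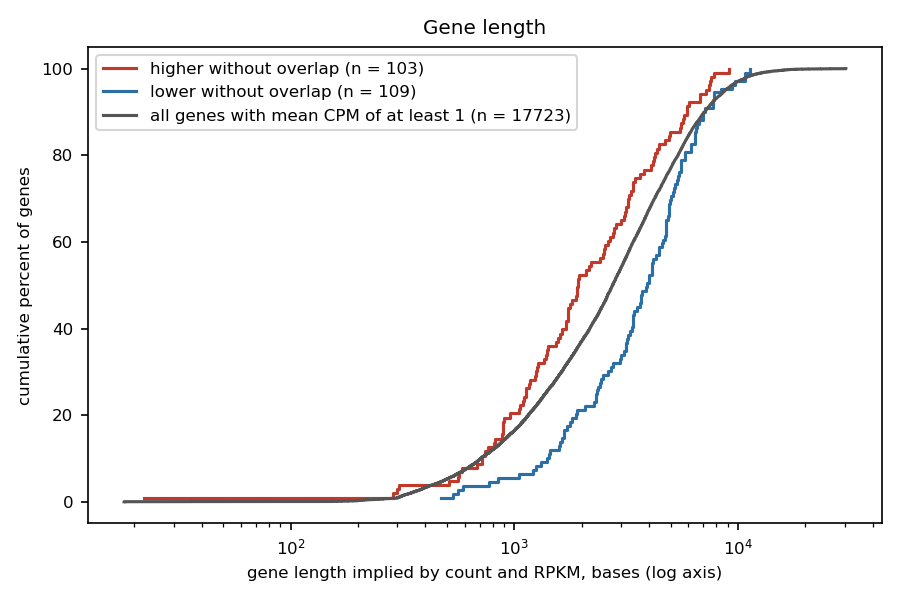
Cumulative percent of genes (vertical axis) by gene length in bases (log axis), for the genes higher without overlap, the genes lower without overlap and all genes with mean CPM of at least 1. The curve of the higher genes lies left of that of all genes and that of the lower genes lies right, with medians of 1924, 3916 and 2752 bases in the order of the legend.

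One gene of the set has an implied length of 22 bases, the size of a mature microRNA. Nfu_g_1_026209, singled out after its length was seen, had 6.60, 7.76, 7.68, 7.68 and 8.25 CPM in antagomiR-29a replicates 1 to 5, against 5.95, 6.33, 6.26, 5.35 and 6.41 CPM in control replicates 1 to 5. This gave a log2 fold change of 0.32 (SE 0.09), and it was not called by edgeR. The table holds 152 genes with an implied length of at most 30 bases, 6 of them with a mean CPM of at least 1. Reads of a longer transcript that overlaps it could be counted on such a feature, which was not tested.

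Of the 104 genes, 14 formed 7 pairs at most 10 rows apart in the deposited order of genes. How many such pairs evenly scattered genes would form was not computed. Adjacent rows held 1 pair, Nfu_g_1_021586 and Nfu_g_1_021288. The second of these had 1.72, 2.80, 2.43, 2.95 and 2.35 CPM in antagomiR-29a replicates 1 to 5, against 1.44, 1.39, 1.68, 1.47 and 1.55 CPM in control replicates 1 to 5. Its log2 fold change of 0.70 was like the 0.73 of its neighbour, but their deviations within groups did not go together (r = -0.24 over 10 libraries). Over the 7 pairs this r ranged from -0.45 to 0.65. Nfu_g_1_005922 lay 8 rows before Nfu_g_1_005777, with log2 fold change 0.90 and SE 0.17 beside 0.89. The 7 genes between them with mean CPM of at least 1 had log2 fold changes of -0.14 to 0.07. Whether the rows follow the genome is not stated.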

How the data were processed

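The submitters' processing notes name bcl2fastq (1.8.4), the aligner STAR (2.4.1d) and the read counter featureCounts (1.4.6-p4); they give no genome build, annotation or strand setting. The authors deposited whole-number read counts per gene and, for the same genes, RPKM. Columns were matched by title and groups taken from the perturbation label. Members, gene lists and tests were chosen with earlier results of these data known.

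The rule used CPM on own library totals. All genes were tested on the deposited counts with edgeR 4.0.16 in R 4.3.3 (filterByExpr with a minimum count of 10 and total of 15, TMM, robust quasi-likelihood fit, group as the only term, Benjamini-Hochberg limit 0.05). The SE is the log2 fold change divided by the square root of F. Deviations used log2(CPM + 0.1). DESeq2 1.42.0 and, on log2(RPKM + 0.1) and log2(RPKM + 1), limma 3.58.1 were alternatives. The edgeR script was tested on simulated data. Overlapping or near-identical genes could not be told apart.

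The deposited RPKM values had been divided by totals that rotate through the 10 libraries from row to row: under that rotation the implied length varied with a median CV of 0.0011% over 4159 genes, against 12.1% with own totals. Lengths were computed that way for genes reaching an RPKM of 0.5, and the RPKM printed use own totals. Named genes were the edgeR calls, the 5 members with the widest separation, the 5 with the highest mean CPM, and those at the limits of the rule; table neighbours of these are given beside them. Lists of miR-29 targets, iron genes and cell markers were not run, since the identifiers have no names. What the number in the sample titles stands for is not stated, so whether it pairs the libraries is not known. Same-numbered libraries correlated at 0.01, -0.31, -0.09 and -0.09 in their deviations from group means. Differently numbered libraries were not compared, so these values cannot settle it. Figures were drawn with matplotlib 3.10.9.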

Additional observations from a re-analysis of the deposited data

Results flagged for a closer look

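In the 34 groups of 5 libraries behind the 17 named genes, 4 had 1 library far from the rest by Dixon's criterion. Chance meets it in about 1 in 20 groups of unselected, normally distributed values. The named genes were selected and share their libraries, so that rate cannot tell whether 4 is many. In Nfu_g_1_000355 antagomiR-29a replicate 5 stood at 90.0 CPM, above the other antagomiR-29a libraries. In Nfu_g_1_013570 antagomiR-29a replicate 1 stood at 1.26 CPM, below the others and nearest to the controls. In Nfu_g_1_008461 antagomiR-29a replicate 4 stood at 334 CPM and control replicate 4 at 277 CPM, each above the rest of its group.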

How the results depend on the processing

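The rule held for 102 to 107 genes with TMM or DESeq2 scaling, sharing 99 and 96 with the set. It held for 32 genes when the lowest antagomiR-29a CPM had to be at least 1.1 times the highest control CPM, and for 48 genes, 24 of them in the set, on the deposited RPKM, whose divisors differ between neighbouring rows. Leaving out 1 library gave 138 to 277 genes. Of the set, DESeq2 called 48 and an adjusted p limit of 0.1 called 16. Over all genes and in either direction these called 73 and 18, where edgeR at 0.05 called 9. With the length trend removed, edgeR called 13 of the set and 14 genes in all. On the deposited RPKM, limma-trend called 0 of the set and 0 in all whichever pseudocount was used (unadjusted p under 0.05: 436 and 442 genes). A replicate block on the title number left 0 edgeR calls in the set and 0 in all (unadjusted p under 0.05: 707 genes). That fit has fewer residual degrees of freedom, and whether the numbers pair the libraries is not known. Leaving out 1 library gave 0 to 8 calls in the set and 0 to 8 in all. The cause of these changes was not tested. The median log2 fold change of the set stayed between 0.34 and 0.41 in every alternative run, and no named gene changed direction, which the choice of genes without overlap largely fixes. Planned settings for gene lists could not be run for lack of gene names.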
